A study of Mus musculus with 12 samples.

Results

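The tumour suppressor ARF, the transcription factor p53, the inhibitors of p53 and a set of p53 target genes were followed through normal and premalignant B cells. The genes were Cdkn2a, Trp53, Mdm2, Mdm4, Cdkn1a, Ccng1, Eda2r, Phlda3, Sesn1 and Zmat3, taken by symbol from count tables that list 24421 genes. All 10 symbols were present, and 9 of the 10 passed the filter on low counts. Eda2r did not and was not tested. RNA was sequenced from B220+ spleen cells of 12 mice aged 4 to 5 weeks, with 3 mice per genotype and 1 library per mouse. EuMyc Max KO mice carried the EuMyc transgene together with the conditional Max knockout, and EuMyc mice carried the transgene with wild-type Max. Max KO mice carried the conditional knockout without the transgene, and WT mice carried neither. B220 is a CD45 isoform of B lineage cells, pro-B cells included, that plasmacytoid dendritic cells carry too. In the EuMyc transgene, Myc is under the enhancer of the immunoglobulin heavy chain locus and is expressed in the B lineage, and the series title calls the transgenic cells premalignant. The Cre line that deletes Max is not given in the sources used here.

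Cdkn2a encodes ARF and the kinase inhibitor INK4a from separate first exons that share a downstream exon in different reading frames. ARF binds MDM2, the ubiquitin ligase that marks p53 for degradation, and so raises p53 protein. p53 in turn activates genes for cell cycle arrest, cell death and redox control, Mdm2 among them, which closes a feedback loop. Oncogenic MYC induces ARF in B cells, and loss of Cdkn2a or Trp53 is a common event in EuMyc lymphoma. MAX is the partner with which MYC binds DNA. p53 is regulated largely at the protein level, which RNA counts do not measure.

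The libraries held 14973332 to 21671601 reads assigned to genes. Levels are given in CPM, reads of a gene scaled to a fixed library total, with library sizes corrected for composition by TMM. Max itself was at 102 to 108.2 CPM in EuMyc Max KO, 126 to 130 in EuMyc, 99.8 to 102 in Max KO and 108.5 to 139 in WT libraries. The knockout libraries lay below the libraries with intact Max, but counts per gene include transcripts that lack a deleted exon, so they are no measure of the completeness of deletion. Max loss below stands for the knockout genotype. Myc was at 487 to 565 CPM in EuMyc Max KO, 975 to 1049 in EuMyc, 120 to 136 in Max KO and 96.1 to 115 in WT libraries. The 7 mature B cell markers in the files, Fcer2a and Cr2 among them, were detected in every group, with summed levels of 2783 to 3432 CPM in EuMyc Max KO, 438 to 611.5 in EuMyc, 3756 to 4906 in Max KO and 3542 to 3894 in WT. Cell states differed between groups. Summed pro-B and pre-B markers were at 66.0 to 111 CPM in EuMyc Max KO, 553 to 631 in EuMyc, 48.7 to 68.4 in Max KO and 64.5 to 89.9 in WT, and Vpreb2 was at 0 in Max KO and WT. Summed proliferation markers were at 1095 to 2846 CPM in EuMyc Max KO, 5620 to 6411 in EuMyc, 355 to 395 in Max KO and 629.6 to 669 in WT. These libraries are bulk RNA, so fewer cells of a type and less RNA per cell cannot be told apart.

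The sequences around the starts of Cdkn2a, Trp53 and Cdkn1a are shown because these genes carry the responses described below and because Cdkn2a has separate starts for ARF and for INK4a. They are RefSeq windows on GRCm38.p6, each with 250 bases before and 50 bases after an annotated start, and run 5′ to 3′ on the strand of the gene. RefSeq windows were found for 9 of the 10 genes, with 13 windows in all. Capitals mark matches, on either strand, to the E-box CACGTG, to its variant CACGCG, to the E2F core GCGGGAA or to the p53 decamer, the repeated unit of a p53 response element. The decamer was matched exactly as RRRCWWGYYY, where R is A or G, W is A or T and Y is C or T. CACGTG and CACGCG are sequences that MYC and MAX can bind as a dimer. The upstream Cdkn2a window at chr4:89294570-89294869, minus strand, covers the start of the ARF transcript, and the downstream window at chr4:89282143-89282442, minus strand, covers that of INK4a. The Trp53 window is chr11:69580109-69580408 and the upstream Cdkn1a window chr17:29090729-29091028, both on the plus strand. A downstream Cdkn1a start has the window chr17:29093519-29093818 on the same strand and is not printed.
Cdkn2a, ARF start: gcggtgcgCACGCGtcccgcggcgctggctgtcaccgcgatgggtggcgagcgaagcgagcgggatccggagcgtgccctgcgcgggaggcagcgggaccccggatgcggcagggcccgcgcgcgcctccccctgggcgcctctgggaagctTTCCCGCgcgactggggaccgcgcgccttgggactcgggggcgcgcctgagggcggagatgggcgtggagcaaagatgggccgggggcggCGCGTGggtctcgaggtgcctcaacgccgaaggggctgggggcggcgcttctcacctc
Cdkn2a, INK4a start: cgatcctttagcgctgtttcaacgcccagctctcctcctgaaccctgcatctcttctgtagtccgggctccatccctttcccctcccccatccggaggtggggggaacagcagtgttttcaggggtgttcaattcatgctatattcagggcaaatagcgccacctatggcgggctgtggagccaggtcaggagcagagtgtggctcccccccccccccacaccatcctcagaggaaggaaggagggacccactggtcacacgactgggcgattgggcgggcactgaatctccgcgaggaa
Trp53: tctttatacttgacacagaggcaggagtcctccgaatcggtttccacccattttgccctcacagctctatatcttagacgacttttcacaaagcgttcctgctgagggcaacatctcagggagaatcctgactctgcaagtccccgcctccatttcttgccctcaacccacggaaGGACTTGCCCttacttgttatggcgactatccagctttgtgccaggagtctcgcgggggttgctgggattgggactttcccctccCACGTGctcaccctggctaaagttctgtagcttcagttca
Cdkn1a: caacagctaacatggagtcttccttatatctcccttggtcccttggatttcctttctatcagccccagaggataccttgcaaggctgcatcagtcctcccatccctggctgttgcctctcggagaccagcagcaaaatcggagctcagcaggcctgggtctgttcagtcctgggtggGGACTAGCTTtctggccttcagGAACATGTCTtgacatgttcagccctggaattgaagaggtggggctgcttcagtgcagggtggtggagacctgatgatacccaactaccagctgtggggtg
The ARF window had 77.0% G and C with 45 CG dinucleotides, against 60.3% and 12 in the INK4a window, while the median window of all genes had 52.7% G and C. It held CACGCG beginning 242 bases before the start, the reverse complement CGCGTG beginning 8 bases before it, and the E2F core beginning 98 bases before it. The INK4a window held none of the 4 motifs. The Trp53 window held CACGTG at position 11, counting the start base as 1, and a p53 decamer beginning 75 bases before the start. The printed Cdkn1a window held 2 p53 decamers, beginning 73 and 51 bases before its start and not adjoining each other. The bases tgacatgttc right after the second differ from the pattern only at their first base and so stay unmarked. The downstream Cdkn1a window, with 64.7% G and C and 23 CG dinucleotides, held none of the 4 motifs. Of all 32851 windows, 7.15% held CACGTG, 9.27% CACGCG, 4.6% the E2F core and 8.36% a p53 decamer, against 2, 1, 1 and 5 of the 13 windows of these genes. The CACGTG matches lay in windows of Trp53 and Eda2r, and the p53 decamers in windows of Cdkn1a, Trp53, Mdm2, Ccng1 and Sesn1. A match is a string of letters and was not tested for binding.

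Of the 9 tested genes, 7 differed between EuMyc and WT cells and 3 between EuMyc Max KO and Max KO cells. A gene was called when its Benjamini-Hochberg adjusted p in edgeR's quasi-likelihood test, over all 12878 tested genes, was under 0.05. In EuMyc against WT 5 genes were called higher (Cdkn2a, Trp53, Cdkn1a, Phlda3 and Zmat3) and 2 lower (Sesn1 and Mdm4), against 36.7% of all tested genes called higher, 34.9% lower and 71.6% in either direction. In EuMyc Max KO against EuMyc 1 gene was called higher (Sesn1) and 3 lower (Cdkn2a, Trp53 and Zmat3), where 37.6% of all genes were called higher, 36.1% lower and 73.7% in either direction. In Max KO against WT none was called higher and 2 lower (Trp53 and Sesn1), where 7.27% of all genes were called higher, 7.74% lower and 15.0% in either direction. With Max knockout in both groups, EuMyc Max KO against Max KO had 3 genes called higher (Cdkn2a, Cdkn1a and Phlda3) and none lower. There 10.7% of all genes were called higher, 3.69% lower and 14.4% in either direction. The comparison of EuMyc Max KO against WT called the same 3 higher and Trp53 and Sesn1 lower, where 17.0% of all genes were called higher, 10.8% lower and 27.8% in either direction. The interaction term, which tests whether Max loss acts differently with and without the transgene, called 1 gene higher (Sesn1) and 2 lower (Trp53 and Zmat3), where 27.8% of all genes were called higher, 27.9% lower and 55.7% in either direction. With 7 of 9 called in EuMyc against WT, the genes were close to the share over all genes, so the description that follows rests on levels and single fold changes. The count of 2 in Max KO against WT dropped to 0 without WT replicate 1 or Max KO replicate 2, and to 1 without any other library of these groups. The count of 5 in EuMyc Max KO against WT dropped to 3 without EuMyc Max KO replicate 1. These comparisons share libraries, so their values are given side by side and were not correlated.

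**Figure D1:**
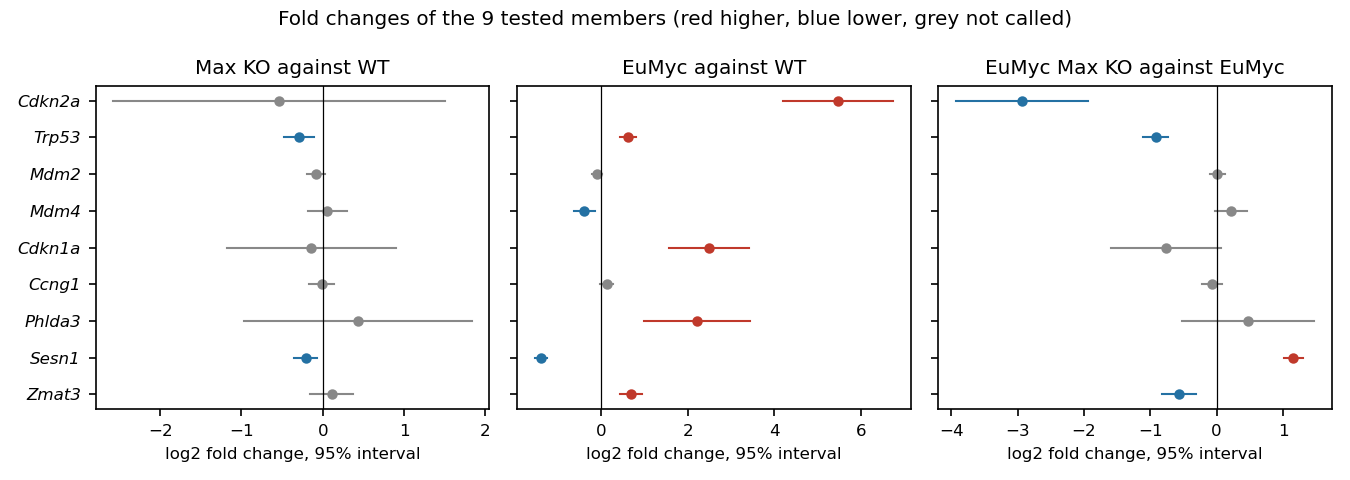
Log2 fold changes of the 9 tested genes with 95% intervals (x axes, on different scales) in Max KO against WT, EuMyc against WT and EuMyc Max KO against EuMyc. Red points were called higher, blue lower and grey not called: Cdkn2a lies at 5.46 in EuMyc against WT and at -2.93 in EuMyc Max KO against EuMyc, and Sesn1 runs the other way, at -1.38 and 1.15.

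Cdkn2a (chr4:89274471-89294653, minus strand, GENCODE vM21 on mm10) was nearly silent without the transgene and was read in every EuMyc library. The EuMyc Max KO libraries held 8, 16 and 34 reads of Cdkn2a, or 0.433, 0.877 and 1.77 CPM. The EuMyc libraries held 157, 181 and 125 reads, or 7.59, 9.62 and 6.53 CPM. The Max KO libraries held 4, 1 and 1 reads and the WT libraries 1, 5 and 3, where 3 reads correspond to 0.145 to 0.192 CPM depending on the library. All 3 EuMyc libraries lay far above the rest, the EuMyc Max KO libraries lay between, and the groups with and without the transgene did not overlap. The ratio of summed reads in EuMyc against WT, scaled for library size, was 45.5 with a 95% counting interval of 23.8 to 100.1. The fitted log2 fold change was 5.46 (SE 0.551, edgeR adjusted p = 1.25e-06). Loss of Max in transgenic cells gave -2.93 for EuMyc Max KO against EuMyc (SE 0.431, edgeR adjusted p = 4.25e-05), and without EuMyc Max KO replicate 3, the highest of its group, -3.58. Cdkn2a stayed higher in EuMyc Max KO than in Max KO by 3.06 (SE 0.664, edgeR adjusted p = 0.00920), with 2.40 when EuMyc Max KO replicate 3 was left out and 3.95 when Max KO replicate 1 was. Against WT the same libraries were higher by 2.52 (SE 0.616, edgeR adjusted p = 0.00968), with 1.87 without EuMyc Max KO replicate 3. Cdkn2a entered these tests through a filter on low counts run on all 4 groups, EuMyc included, where it is high. The calls of EuMyc Max KO against Max KO and against WT carry that limit. The ratio of summed reads in EuMyc Max KO against Max KO was 8.78, with a 95% counting interval of 3.80 to 24.9.

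In Max KO against WT the fitted log2 fold change of Cdkn2a was -0.53 (SE 0.885, edgeR adjusted p = 0.729). Its 95% interval ran from -2.575 to 1.505, and it was not called. The 6 reads in Max KO and 9 in WT are at or near the limit of detection, so this value cannot show whether Cdkn2a changed. The interaction of Max loss and transgene was therefore weakly determined for this gene, at -2.40 (SE 1.08, edgeR adjusted p = 0.0765). It was called by DESeq2 (adjusted p = 0.0357) and by edgeR without EuMyc Max KO replicate 3 (adjusted p = 0.0146), but was at -1.51 (adjusted p = 0.442) without Max KO replicate 1. Counts per gene do not separate the ARF transcript from that of INK4a. Cdkn2b, which encodes the related inhibitor INK4b next to Cdkn2a, was too low to be tested, with 12 reads in EuMyc Max KO, 25 in EuMyc, 8 in Max KO and 21 in WT. On the other side, Mtap, an enzyme of methionine salvage, was at 32.2 to 38.0 CPM in EuMyc Max KO, 54.3 to 63.5 in EuMyc, 35.5 to 39.0 in Max KO and 35.5 to 41.0 in WT. Mtap was higher in EuMyc than in WT by 0.62 (SE 0.0889, edgeR adjusted p = 3.62e-05) and lower in EuMyc Max KO than in EuMyc by -0.75 (SE 0.0891, edgeR adjusted p = 5.94e-06). These neighbours were chosen after their values were seen.

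**Figure D2:**
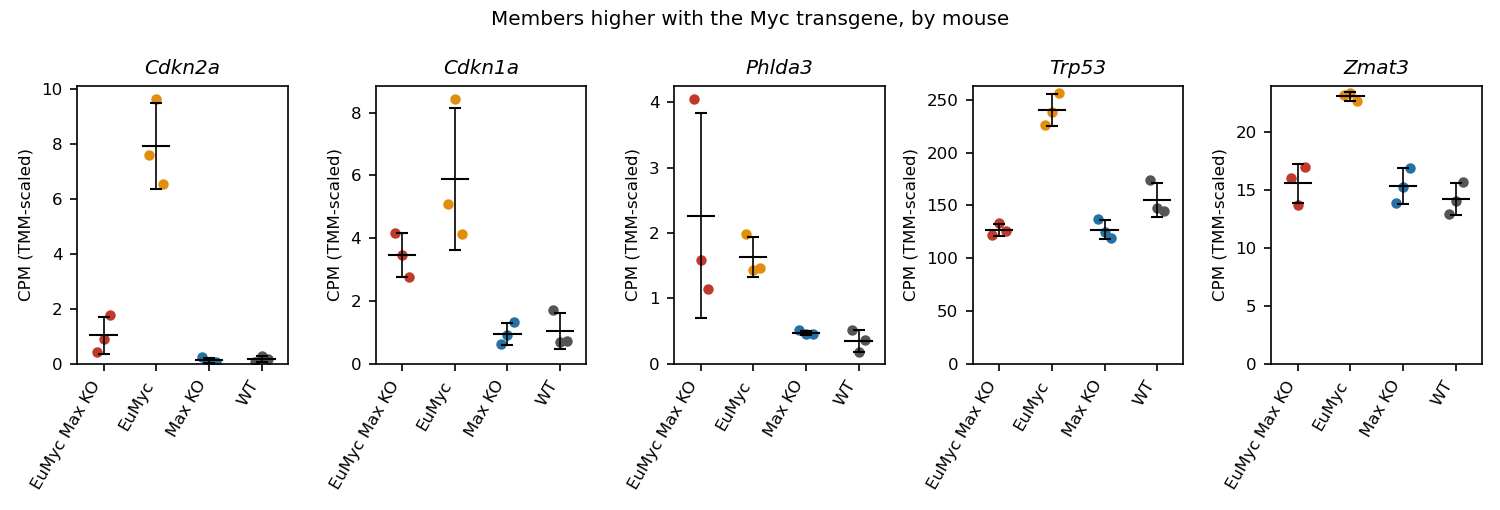
CPM by mouse (y axes, one scale per gene) of the genes called higher in EuMyc against WT, with each point 1 library and bars the mean and SD of 3 mice, in the order EuMyc Max KO, EuMyc, Max KO and WT. Cdkn2a reaches 6.53 to 9.62 CPM in EuMyc and stays at 0.433 to 1.77 in EuMyc Max KO, while Cdkn1a and Phlda3 are raised in both transgenic groups.

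Trp53 (chr11:69580359-69591873, plus strand), which encodes p53, was also higher in EuMyc than in WT and lower in EuMyc Max KO than in EuMyc, over a much smaller range, but was not higher in EuMyc Max KO than in Max KO or WT. It was at 122, 133 and 125 CPM in EuMyc Max KO and 226, 238 and 256 CPM in EuMyc. It was at 137, 125.0 and 119 CPM in Max KO and 174, 147 and 145 CPM in WT. The EuMyc libraries lay above every other library, and the EuMyc Max KO libraries lay within the range of Max KO and below WT. Trp53 rose in EuMyc against WT by 0.63 on the log2 scale (SE 0.0792, edgeR adjusted p = 1.03e-05) and fell in EuMyc Max KO against EuMyc by 0.92 (SE 0.0797, edgeR adjusted p = 3.29e-07). The value for EuMyc Max KO against Max KO was near 0, at -0.00038 with a 95% interval of -0.18 to 0.18. In Max KO against WT Trp53 was lower by -0.29 (SE 0.0796, edgeR adjusted p = 0.0298). That call was lost without WT replicate 1 (0.127), Max KO replicate 2 (0.0902) or Max KO replicate 3 (0.0722), all edgeR adjusted p. EuMyc Max KO against WT gave -0.29 as well (SE 0.0795, edgeR adjusted p = 0.0166), with adjusted p = 0.0710 without WT replicate 1 and 0.0556 without EuMyc Max KO replicate 1. The interaction was -0.63 (SE 0.112, edgeR adjusted p = 0.000411).

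Of the 2 inhibitors of p53, Mdm4 fell in EuMyc against WT, and Mdm2 did not pass the test in any of the 6 comparisons. Mdm2 (chr10:117688875-117710758, minus strand) was at 92.9, 90.5 and 91.4 CPM in EuMyc Max KO, 93.1, 91.4 and 88.2 in EuMyc, 92.8, 87.3 and 92.8 in Max KO and 94.96, 96.7 and 96.9 in WT. The WT libraries were the highest, and the other 3 groups overlapped. The log2 fold change was 0.01 in EuMyc Max KO against EuMyc, with a 95% interval of -0.10 to 0.12, and -0.08 in EuMyc against WT, with an interval of -0.19 to 0.03. Scaling by library totals alone, which moves the median of all genes from 0.0119 to -0.0922 in EuMyc against WT, gave Mdm2 a call there, at -0.19 (edgeR adjusted p = 0.00484), and one in EuMyc Max KO against EuMyc, at 0.13 (edgeR adjusted p = 0.0305), where the median of all genes moves from 0.0280 to 0.148. Mdm4 (chr1:132959484-133030561, minus strand), which binds p53 and blocks its activity without degrading it, was at 319, 396 and 416 CPM in EuMyc Max KO and 350, 294 and 329 in EuMyc. It was at 437, 434 and 442 CPM in Max KO and 379, 474 and 413 in WT. All EuMyc libraries lay below all WT libraries, and EuMyc Max KO replicate 1 lay within the EuMyc range. Mdm4 fell in EuMyc against WT by 0.38 (SE 0.105, edgeR adjusted p = 0.00546). EuMyc Max KO against EuMyc gave 0.22 (SE 0.104, edgeR adjusted p = 0.0772), which passed without EuMyc Max KO replicate 1 (0.32, adjusted p = 0.00683) and under library totals (0.34, adjusted p = 0.0180).

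Cdkn1a, the p21 inhibitor of cyclin-dependent kinases (chr17:29090976-29100727, plus strand), was raised in both transgenic groups. Its level was 4.17, 3.45 and 2.76 CPM in EuMyc Max KO and 5.08, 8.45 and 4.13 CPM in EuMyc. Its level was 0.621, 0.895 and 1.31 CPM in Max KO and 1.72, 0.682 and 0.715 CPM in WT. Every transgenic library exceeded every library without the transgene, and the transgenic groups overlapped each other. Cdkn1a rose in EuMyc against WT by 2.49 (SE 0.403, edgeR adjusted p = 9.76e-05) and in EuMyc Max KO against Max KO by 1.87 (SE 0.413, edgeR adjusted p = 0.0101). The second call was just lost without Max KO replicate 1 (edgeR adjusted p = 0.0505). EuMyc Max KO was 1.73 above WT (SE 0.407, edgeR adjusted p = 0.00804). EuMyc Max KO against EuMyc gave -0.77 (SE 0.360, edgeR adjusted p = 0.0705), with an interval of -1.60 to 0.06, and passed without EuMyc replicate 3 (adjusted p = 0.0384) or WT replicate 1 (adjusted p = 0.0412). Without EuMyc replicate 2, the highest of its group, the same value was -0.42 (edgeR adjusted p = 0.344). The exons of Cdkn1a share 273 bases with AC167363.2, a gene model of unknown function on the opposite strand, and the strand setting of the counting is not given in the sources used here.

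Phlda3, a p53 target that restrains AKT signalling (chr1:135766119-135769136, plus strand), was also raised in both transgenic groups at a low level. It was at 4.06, 1.59 and 1.14 CPM in EuMyc Max KO and 1.98, 1.44 and 1.46 CPM in EuMyc. It was at 0.508, 0.447 and 0.457 CPM in Max KO and 0.516, 0.171 and 0.357 CPM in WT. EuMyc Max KO replicate 1 stood above every other library, and all transgenic libraries exceeded those without the transgene. Phlda3 rose in EuMyc against WT by 2.21 (SE 0.529, edgeR adjusted p = 0.00216). It was higher by 2.25 in EuMyc Max KO against Max KO (SE 0.501, edgeR adjusted p = 0.0105), with 1.52 (adjusted p = 0.0473) without EuMyc Max KO replicate 1 and adjusted p = 0.0549 when only these 2 groups were fitted. EuMyc Max KO was 2.68 above WT (SE 0.521, edgeR adjusted p = 0.00310), with 1.95 (adjusted p = 0.00991) without EuMyc Max KO replicate 1. EuMyc Max KO against EuMyc gave 0.47 (SE 0.432, edgeR adjusted p = 0.340), and -0.25 without EuMyc Max KO replicate 1.

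Markers of other cell types differed between the groups as well, with the EuMyc libraries lowest for most of them. All 3 EuMyc Max KO libraries lay above EuMyc, except in plasma cell markers. Summed plasma cell markers were at 595.5 to 1079 CPM in EuMyc Max KO, 510 to 679 in EuMyc, 425 to 519.5 in Max KO and 931 to 1632 in WT. Summed T cell markers were at 156 to 166 CPM in EuMyc Max KO, 29.6 to 30.2 in EuMyc, 160.2 to 179 in Max KO and 102 to 122 in WT. Summed monocyte and macrophage markers were at 5131, 3741 and 2589 CPM in EuMyc Max KO, 765 to 998 in EuMyc, 2579 to 3546 in Max KO and 1609 to 2034 in WT. In EuMyc against WT all 7 tested T cell markers, 8 of 9 monocyte and macrophage, 5 of 6 NK, 6 of 7 dendritic and all 7 mature B markers were called lower. All 8 general B cell markers were called lower there too. Their sums were 7335 to 8951 CPM in EuMyc Max KO, 4284 to 5102 in EuMyc, 9011 to 9977 in Max KO and 10630 to 11620 in WT. In EuMyc Max KO against EuMyc all 7 T cell, 9 of 9 monocyte and macrophage and all 6 NK markers were called higher. So were 6 of 7 dendritic, all 7 mature B and 6 of 8 B cell markers, while 1 B cell marker was called lower. In EuMyc Max KO against Max KO no T cell, monocyte and macrophage, NK or mature B marker was called. That comparison called 2 of 7 dendritic, 1 of 8 B cell and 2 of 4 tested stroma and endothelium markers lower. It called 5 of 7 tested pro-B and pre-B and all 10 proliferation markers higher. Erythroid and neutrophil markers were highest in EuMyc Max KO libraries 1 and 2. Summed erythroid markers were at 2026, 1403 and 451 CPM in EuMyc Max KO, 134 to 158 in EuMyc, 109 to 344 in Max KO and 51.6 to 215 in WT. All 6 tested of 8 were called higher in EuMyc Max KO against EuMyc, 4 in EuMyc Max KO against Max KO and 2 in EuMyc against WT, while Hbb-bt was at 0 in EuMyc Max KO and EuMyc and Hba-a1 at 0 in EuMyc. Summed neutrophil markers were at 251, 231 and 19.0 CPM in EuMyc Max KO, 9.09 to 14.1 in EuMyc, 11.01 to 145 in Max KO and 2.86 to 11.5 in WT, with all 5 tested called higher in EuMyc Max KO against EuMyc and none in EuMyc against WT. Replicate 1, highest in these non-lymphoid sums, was also highest of its group in Phlda3 and Cdkn1a and lowest in Cdkn2a. The part of these cells in the results on Cdkn2a and the other genes, in EuMyc against WT and in EuMyc Max KO against EuMyc alike, was not tested.

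Sesn1, a sestrin that restrains the growth kinase mTORC1 and lowers oxidative stress (chr10:41809935-41908424, plus strand), moved against the other responding targets. It was at 149, 166 and 165 CPM in EuMyc Max KO and 74.7, 66.3 and 74.4 CPM in EuMyc. It was at 161, 161 and 162 CPM in Max KO and 182, 193 and 185 CPM in WT. The EuMyc libraries lay below every other library, and EuMyc Max KO overlapped Max KO. Sesn1 fell in EuMyc against WT by 1.38 (SE 0.0611, edgeR adjusted p = 1.07e-09) and rose in EuMyc Max KO against EuMyc by 1.15 (SE 0.0609, edgeR adjusted p = 4.50e-09). Sesn1 was at -0.01 in EuMyc Max KO against Max KO, with a 95% interval of -0.15 to 0.13. In Max KO against WT Sesn1 was lower by -0.21 (SE 0.0596, edgeR adjusted p = 0.0328). That call was lost without WT replicate 1, 2 or 3 or Max KO replicate 1 or 2, with an edgeR adjusted p of 0.0676, 0.102, 0.0689, 0.0969 and 0.0866 in that order, and under library totals (0.101). EuMyc Max KO was -0.22 below WT (SE 0.0595, edgeR adjusted p = 0.0147), with adjusted p = 0.0580 without WT replicate 2 and 0.0623 without EuMyc Max KO replicate 1. The interaction was 1.37 (SE 0.0850, edgeR adjusted p = 1.30e-07).

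**Figure D3:**
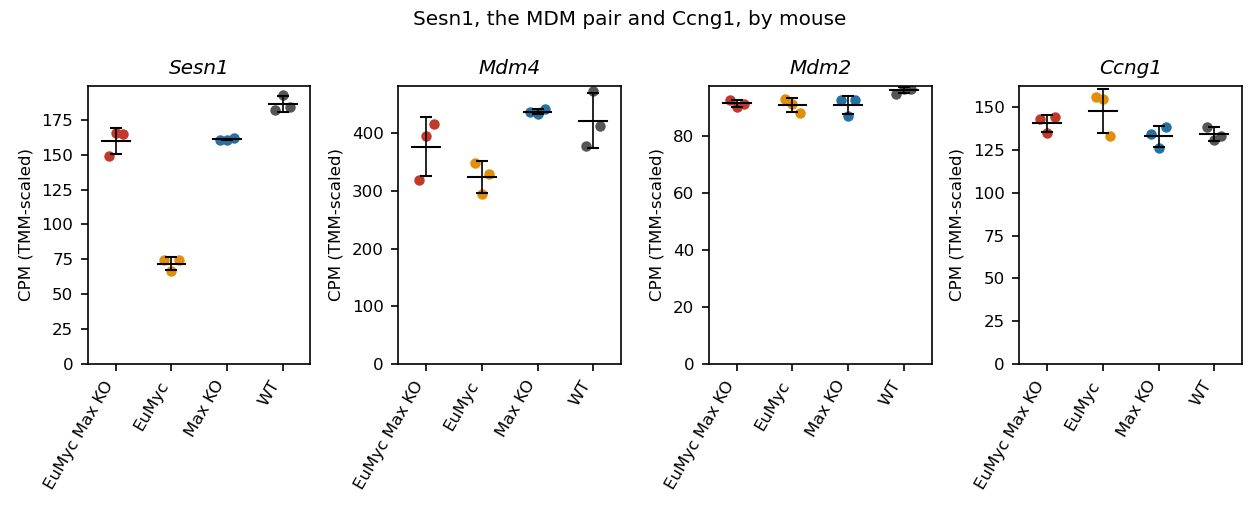
CPM by mouse (y axes from 0, one scale per gene) of Sesn1, Mdm4, Mdm2 and Ccng1, with each point 1 library and bars the mean and SD of 3 mice, in the order EuMyc Max KO, EuMyc, Max KO and WT. Sesn1 is at 66.3 to 74.7 CPM in EuMyc and at 149 to 193 CPM elsewhere, while Mdm2 and Ccng1 stay in narrow ranges.

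Zmat3, an RNA-binding zinc finger protein (chr3:32334792-32366014, minus strand), was raised in EuMyc cells with intact Max. Its level was 16.1, 13.7 and 17.0 CPM in EuMyc Max KO and 23.2, 23.4 and 22.7 CPM in EuMyc. Its level was 13.9, 15.2 and 16.9 CPM in Max KO and 12.9, 14.0 and 15.7 CPM in WT. The EuMyc libraries lay above every other library, and the other 3 groups overlapped. Zmat3 rose in EuMyc against WT by 0.70 (SE 0.113, edgeR adjusted p = 9.42e-05) and fell in EuMyc Max KO against EuMyc by 0.57 (SE 0.112, edgeR adjusted p = 0.000508). The interaction was -0.68 (SE 0.160, edgeR adjusted p = 0.00297), and EuMyc Max KO against Max KO gave 0.02 with a 95% interval of -0.24 to 0.28.

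Ccng1, cyclin G1, a p53 target that acts with protein phosphatase 2A (chr11:40748552-40755311, minus strand), was called in no comparison. It was at 143, 135 and 144 CPM in EuMyc Max KO, 156, 155 and 133 in EuMyc, 134, 126 and 139 in Max KO and 139, 131 and 133 in WT, and all groups overlapped. EuMyc against WT gave 0.14 (SE 0.0659, edgeR adjusted p = 0.0759), with an interval of -0.01 to 0.29. Without EuMyc replicate 3 that comparison passed (0.21, edgeR adjusted p = 0.00795), as did EuMyc Max KO against EuMyc (-0.15, adjusted p = 0.0460). Eda2r, a receptor of ectodysplasin A2 (chrX:97333840-97377216, minus strand), had 1 read in EuMyc Max KO, 2 in EuMyc, 1 in Max KO and 0 in WT, summed over 3 libraries each. Its level was not detectable at this depth, since 3 reads in a library correspond to 0.145 to 0.192 CPM.

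Per kilobase of exon, the order of the genes differed between groups. The length is that of the merged exons of all annotated transcripts of a gene. It was 14798 bases for Mdm4, 11435 for Zmat3 and 1172 for Cdkn2a, so ranks between genes depend on the annotation. In WT, Sesn1 was highest at 46.9 ± 1.44 CPM per kb (SD, n = 3), followed by Trp53 at 38.4 ± 3.98 and Ccng1 at 38.3 ± 1.11, which did not differ beyond their spread. Mdm4 followed at 28.5 ± 3.23, Mdm2 at 18.9 ± 0.209 and Zmat3 at 1.24 ± 0.122, while Cdkn1a, Phlda3 and Cdkn2a were at 0.292, 0.223 and 0.148 with overlapping spreads. In EuMyc, Trp53 was highest at 59.4 ± 3.76 CPM per kb, followed by Ccng1 at 42.1 ± 3.67 and Mdm4 at 21.9 ± 1.89. Sesn1 at 18.0 ± 1.20 and Mdm2 at 17.9 ± 0.488 did not differ beyond their spread, and Cdkn2a, last but for Eda2r in WT, stood at 6.75 ± 1.34, above Zmat3 at 2.02 ± 0.0320. The leading genes in EuMyc Max KO, not different beyond their spread, were Sesn1 at 40.1 ± 2.34 and Ccng1 at 40.1 ± 1.45 CPM per kb, with Cdkn2a at 0.875 ± 0.580. Max KO kept Sesn1 at 40.5 ± 0.148, Ccng1 at 37.9 ± 1.82 and Trp53 at 31.4 ± 2.19 CPM per kb.

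**Figure D4:**
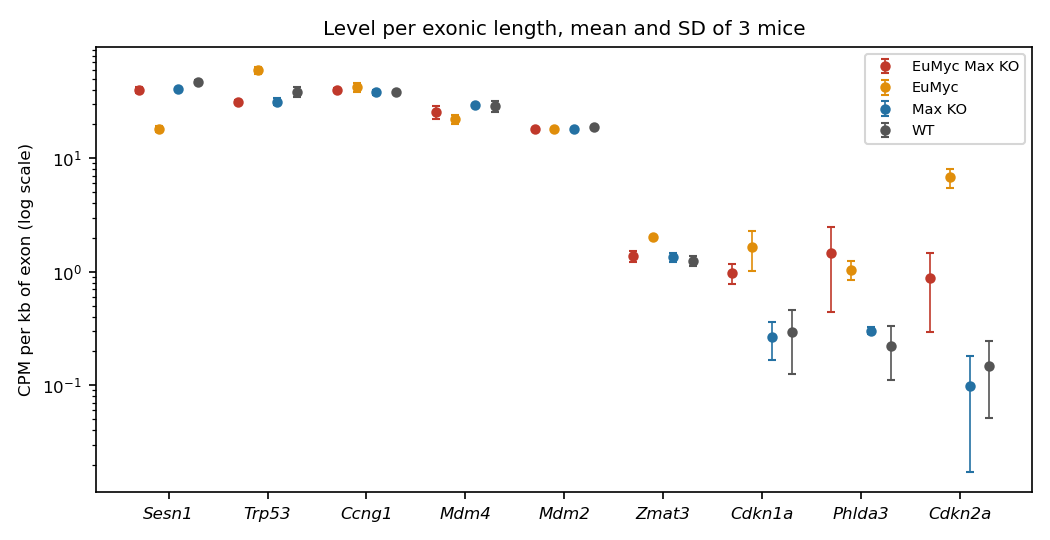
Level of each tested gene per kilobase of exon (CPM per kb, log axis) in EuMyc Max KO, EuMyc, Max KO and WT, as means of 3 mice with SD. Cdkn2a stands at 6.75 in EuMyc and 0.148 in WT, while Mdm2 lies between 17.9 and 18.9 in all 4 groups.

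Other p53 targets were called in both directions. Of a list of 44 such genes 38 were tested. In either direction 29 were called in EuMyc against WT and 31 in EuMyc Max KO against EuMyc, beside 71.6% and 73.7% of all genes. Higher calls outnumbered lower ones in the first comparison, and lower calls outnumbered higher ones in the second. In EuMyc against WT 18 were called higher and 11 lower, beside 36.7% and 34.9% of all genes (median log2 fold change 0.21, against 0.01 over all genes). For EuMyc Max KO against EuMyc 12 were called higher and 19 lower, beside 37.6% and 36.1% of all genes (median -0.11, against 0.03). In Max KO against WT 3 were higher and 6 lower, beside 7.27% and 7.74% (median -0.15, against -0.00323). EuMyc Max KO against Max KO had 9 called higher and 2 lower, beside 10.7% and 3.69%, and EuMyc Max KO against WT had 9 higher and 6 lower, beside 17.0% and 10.8%. The total of 9 in Max KO against WT dropped to between 3 and 5 without any 1 of the WT libraries or Max KO replicate 1 or 2, and was 14 without EuMyc Max KO replicate 3. The total of 11 in EuMyc Max KO against Max KO was 6 or 7 without EuMyc Max KO replicate 1 or 2 or Max KO replicate 1 or 3, and 18 without EuMyc Max KO replicate 3. The smaller lists that follow hold too few genes to be read against these shares. Of 11 tested cell death targets 7 were higher and 1 lower in EuMyc against WT and in EuMyc Max KO against EuMyc 1 was higher and 7 lower. Bbc3, the BH3-only death protein PUMA, was at 7.69 to 9.76 CPM in EuMyc Max KO and 13.1 to 15.0 in EuMyc, against 4.69 to 6.65 in Max KO and 2.62 to 3.55 in WT. Bbc3 rose by 2.19 in EuMyc against WT (edgeR adjusted p = 1.58e-07) and by 0.87 in Max KO against WT (edgeR adjusted p = 0.00854). Siva1 and Pidd1, which act in apoptosis, rose in EuMyc against WT by 2.08 and 1.81 and fell in EuMyc Max KO against EuMyc by 1.70 and 1.52. Apaf1, the apoptosome scaffold, fell in EuMyc Max KO against EuMyc by 0.61.

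The growth arrest and stress targets split evenly, with 5 of 12 tested higher and 5 lower in EuMyc against WT. Psrc1 and Ckap2, which are spindle proteins, rose by 3.12 and 3.75, and Pml, the nuclear body protein, fell by 1.06. Between EuMyc Max KO and EuMyc 5 were higher and 5 lower: the polo-like kinase Plk2 fell by 3.04, while the sestrin Sesn2 and the tetraspanin Cd82 rose by 1.44 and 2.35. Of the 6 DNA repair targets 2 were higher and 3 lower in EuMyc against WT, among them Polh, a translesion polymerase, at 1.62, Rrm2b, a ribonucleotide reductase subunit, at 0.63, and Ddb2, a damage sensor, at -1.08. Of 9 tested metabolic and translation targets 4 were higher and 2 lower, with the ribosomal protein Rps27l at 1.94 and the epoxide hydrolase Ephx1 at -2.44. Rps27l in EuMyc Max KO against EuMyc was at -1.62, Ephx1 at 2.28 and the autophagy regulator Dram1 at 2.81. In Max KO against WT Dram1 was higher by 1.07 and Slc19a2, a thiamine transporter, lower by -0.88. From the other target lists and this one, Sesn2 was called higher there, at 0.52. Psrc1, Plk2, Fdxr and Apaf1 were called lower, at -1.28, -1.07, -0.49 and -0.20. The calls of Sesn2, Psrc1, Plk2, Fdxr and Apaf1 were lost when certain single libraries were left out. Perp, Gdf15, Trp53cor1, Gls2, Sco2 and Ak1 did not pass the filter on low counts. The 10 proliferation markers were all called higher in EuMyc against WT and all lower in EuMyc Max KO against EuMyc, and their part in these target counts was not tested.

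**Figure D5:**
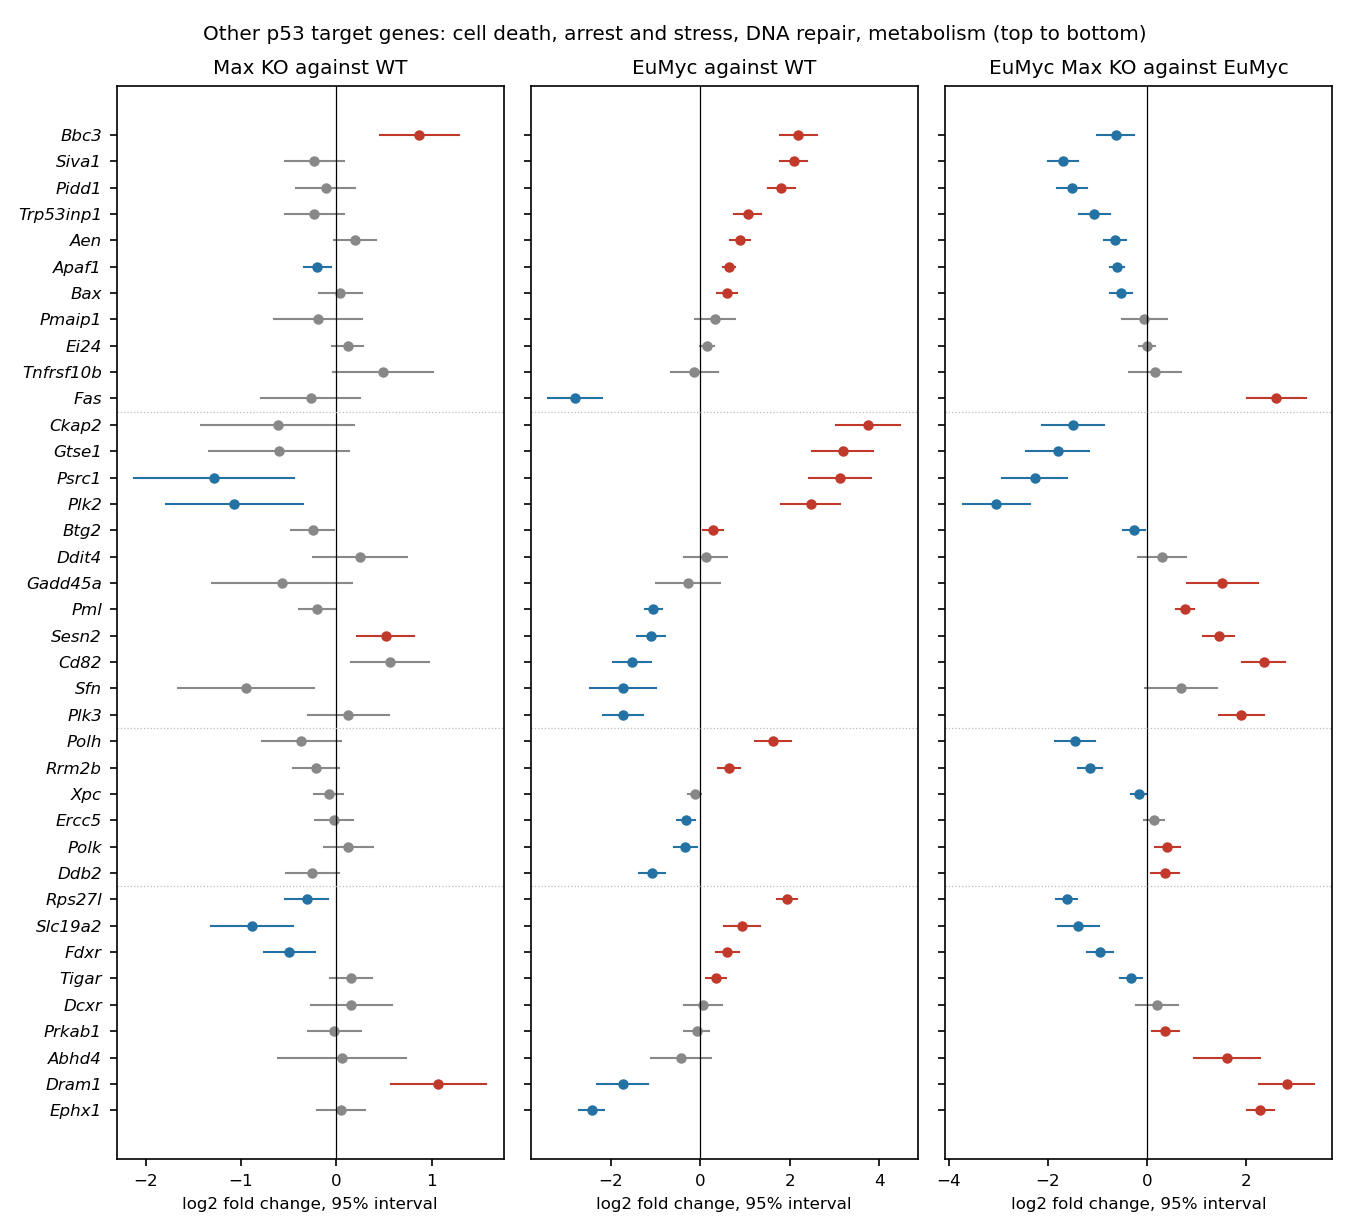
Log2 fold changes with 95% intervals (x axes, on different scales) of the 38 tested p53 targets outside the 10 genes, in Max KO against WT, EuMyc against WT and EuMyc Max KO against EuMyc, with red called higher, blue lower and grey not called. Rps27l is at 1.94 in EuMyc against WT and -1.62 in EuMyc Max KO against EuMyc, and Ephx1 at -2.44 and 2.28.

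Genes that act on the pathway were called about as often as genes at large, of which 71.6% were called in EuMyc against WT and 73.7% in EuMyc Max KO against EuMyc. Of 11 tested genes of p53 turnover and ARF binding, 7 were called higher and 2 lower in EuMyc against WT, and 1 higher and 7 lower in EuMyc Max KO against EuMyc. Npm1, the nucleolar protein that holds ARF, was at 610 to 718 CPM in EuMyc Max KO and 2297 to 2574 in EuMyc, against 471 to 532 in Max KO and 554 to 667.5 in WT. It rose by 1.94 in EuMyc against WT (edgeR adjusted p = 1.61e-09) and fell by 1.87 in EuMyc Max KO against EuMyc (edgeR adjusted p = 2.65e-09). Gnl3, nucleostemin, rose by 1.61 and fell by 1.55 in the same comparisons, and the p53 phosphatase gene Ppm1d rose by 0.63 in the first. In Max KO against WT 4 of the 11 were lower and none higher, where 7.74% of all genes were called lower, with Rpl11, a ribosomal protein that binds MDM2, at -0.42. Among these 4, the ribosomal protein gene Rpl23 lost its call without WT replicate 1 or 3 or Max KO replicate 1 or 2 (edgeR adjusted p up to 0.102). Daxx, whose product binds MDM2, lost its call when WT replicate 1 was left out or each Max KO library in turn (edgeR adjusted p up to 0.125), and just lost it under library totals and with the replicate block. Of 10 tested kinases and cofactors of p53, 4 were higher and 2 lower in EuMyc against WT, and 3 higher and 4 lower in EuMyc Max KO against EuMyc. In EuMyc against WT Chek1, the checkpoint kinase, rose by 3.69 and the acetyltransferases Ep300 and Crebbp fell by 0.58 and 0.59. Chek1 fell by 2.71 in EuMyc Max KO against EuMyc.

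Regulators of the Cdkn2a locus, activators and repressors alike, included genes called in both directions, in comparisons that called 71.6% and 73.7% of all genes. The sorting into activators and repressors is that of the lists, and these roles were not tested here. Of 7 tested genes listed as activators 3 were called higher and 2 lower in EuMyc against WT, with E2f1 at 2.12, E2f3 at 1.26 and Foxo1 at -1.07. Of 15 tested repressors 7 were higher and 5 lower, with the Polycomb proteins Cbx2, Ezh2 and Suz12 at 3.33, 3.05 and 1.06. Between EuMyc Max KO and EuMyc 5 repressors were higher and 9 lower, with Ezh2 at -2.27 and Cbx2 at -2.20, and 2 activators were higher and 4 lower, with E2f3 at -1.25. Of 3 tested p53 family and INK4 genes, the kinase inhibitor Cdkn2c rose by 2.80 and Trp73, a p53 relative, fell by 3.43 in EuMyc against WT. Trp73 was low throughout, with 52 reads in EuMyc Max KO, 3 in EuMyc, 18 in Max KO and 32 in WT.

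Over the 12 libraries, the genes whose log2 CPM was most like that of Cdkn2a were Gusb (Pearson r = 0.975), Ssr1 (0.973) and Pla2g12a (0.968). The genes most like Trp53 were Dpp9 (0.991), Trim25 (0.989) and Ddx47 (0.988), and those most like Cdkn1a were Bcl2l13 (0.967), Egfl7 (0.966) and Minpp1 (0.952). For Mdm2 the best were Fbxo47 (0.863), Asic1 (0.855) and Mtmr11 (0.852). Among the 10 genes themselves, Sesn1 and Zmat3 stood at r = -0.934 and Cdkn2a and Zmat3 at 0.854. These values are descriptions: the libraries fall into genotype groups, and all genes of a library share its depth and cell makeup.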

How the data were processed

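RNA of B220+ spleen cells from 12 mice was sequenced. Per the submitters' processing notes, bcl2fastq 1.8.4, TopHat2 2.1.0 and HTSeq 0.6.1 were used with mm10; annotation and strand setting: not given in the sources used here. The authors deposited raw counts, whole numbers of reads for each gene symbol. The 5 summary rows that name no gene stayed out; reads outside genes made up 12.5% to 20.3% of a library's reads in the tables, reads with several places 20.3% to 27.9% and ambiguous reads 0.748% to 1.45%.

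Groups came from the genotype labels. Libraries of 1 group differed by more than sampling noise (chi-square per degree of freedom 7.46 to 65.6). With edgeR 4.0.16 in R 4.3.3, filterByExpr left 12878 genes, libraries were scaled by TMM, and a robust quasi-likelihood model of all 12 libraries (8 residual degrees of freedom; common biological coefficient of variation 13.7%) gave 6 contrasts with Benjamini-Hochberg adjustment over all tested genes. Intervals are 95%, from the SE with 8 degrees of freedom; ratios of summed reads carry exact binomial intervals, which cover counting error only. An exact permutation test of 3 mice against 3 cannot go below p = 0.1. Alternatives were RLE factors, library totals, no filter, DESeq2 1.42.0, only the 2 groups compared, a replicate block, and leaving out each library.

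The 10 genes and all lists were chosen with earlier results of these data known. Beside them the text names, per list and for 3 comparisons, up to 3 called genes with the smallest p, and the 3 genes most correlated with Cdkn2a, Trp53, Mdm2 and Cdkn1a; Mtap was added after its values were seen.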

Additional observations from a re-analysis of the deposited data

Results flagged for a closer look

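For 3 of the 9 tested genes the effect of Max loss differed between cells with and without the transgene. This was called by the interaction term of edgeR's quasi-likelihood test, which called 55.7% of all genes. The interaction of Trp53 was -0.63 on the log2 scale: Max loss gave -0.92 with the transgene and -0.29 without it. The interaction of Sesn1 was 1.37, with 1.15 with the transgene and -0.21 without it. The interaction of Zmat3 was -0.68, with -0.57 with the transgene and 0.11 without it. Without the transgene Zmat3 was not called. There the calls of Trp53 and Sesn1 were lost when single libraries were left out, with edgeR adjusted p up to 0.127 and 0.102.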

How the results depend on the processing

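Under RLE factors, DESeq2, no filter and the replicate block, no count of called genes moved by over 1.5 times. Library totals alone left 1 of the 10 genes called in Max KO against WT. Fitting only the 2 groups left 1 of the 10 genes, 4 other p53 targets and 851 of all genes called in EuMyc Max KO against Max KO. Library totals moved the split of calls in Max KO against WT to 1130 higher and 719 lower, against 936 and 997 under TMM, and that in EuMyc Max KO against EuMyc to 5470 and 3995, against 4845 and 4649.

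Leaving out 1 library in turn gave, in Max KO against WT, 0 to 2 of the 10 genes, 3 to 14 other targets and 808 to 2563 of all genes. It gave 6 to 18 other targets and 1057 to 2846 of all genes in EuMyc Max KO against Max KO, and in EuMyc Max KO against WT 3 to 5 of the 10 genes and 2379 to 4236 of all genes. The cause was not tested.

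Reversals concerned values that were not called. Under library totals they were Ccng1 at 0.0253 in Max KO against WT, 0.0470 in EuMyc Max KO against EuMyc and 0.0217 in the interaction, Foxo1 at 0.0134 in Max KO against WT, and Mdm2 at -0.0131 and Zmat3 at -0.00075 in EuMyc Max KO against Max KO. With no filter Mdm2 was at -5.8e-05 in EuMyc Max KO against EuMyc. Trp53 in EuMyc Max KO against Max KO was at 0.00736 with RLE factors, 0.00684 with DESeq2, 0.0039 with only the 2 groups and 0.00148 with the replicate block. With 1 library left out, the ranges that crossed 0 in Max KO against WT were -0.0184 to 0.143 for Mdm4, -0.49 to 0.43 for Cdkn1a, -0.0680 to 0.0219 for Ccng1, -0.0843 to 0.0251 for Foxo1 and -0.0204 to 0.21 for Cdkn2c. For EuMyc Max KO against EuMyc they were -0.0120 to 0.0245 for Mdm2 and -0.25 to 0.79 for Phlda3. For EuMyc Max KO against Max KO they were -0.0561 to 0.0551 for Trp53, -0.0200 to 0.0245 for Mdm2, -0.0386 to 0.0370 for Sesn1 and -0.0457 to 0.106 for Zmat3. For Phlda3 the interaction ran from -0.69 to 0.37.

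The genotype labels do not say whether replicate numbers pair the mice, and the main model did not use them as pairs. Same-numbered libraries correlated in their deviations at r = -0.117 to 0.344, over 0.1 in 4 of 15 pairs. In Max KO against WT the values were 0.179, 0.344 and 0.0951. The comparisons share libraries, so these values cannot decide whether mice were paired. The replicate block kept 7 called genes of the 10 in EuMyc against WT and 4 in EuMyc Max KO against EuMyc, gave 1738 calls over all genes in Max KO against WT, and turned the interaction of Phlda3 to -0.12. Depth limits Cdkn2a, Eda2r and Phlda3, at under 10 reads per library without the transgene.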
